A study of Mus musculus with 8 samples.

Results

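Among T cells of the 5xFAD mouse brain, 228 cells in 111 clones carried a T cell receptor beta chain with a hydrophobic residue at both position 6 and position 7 of its CDR3. They were chosen from cells with exactly 1 productive beta chain (TRB) whose CDR3 had 12 to 16 residues, counting the first cysteine as position 1 and taking A, C, F, I, L, M, V, W and Y as hydrophobic. The choice used only the receptor sequence, and 5721 of 6686 cell barcodes, in 3796 clones, met the conditions on chain number and length. These cells and clones are called hydrophobic-pair cells and clones here, and all others of the same lengths are called other cells and clones. A clone is a set of cells that share a deposited clonotype within a library.

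The beta chain CDR3 is built where a V, a D and a J segment are joined with untemplated bases, and its middle touches the peptide held by an MHC molecule. Positions 6 and 7 lie in that middle part, and in mouse and human repertoires hydrophobic residues there have been linked to self-reactivity and to regulatory or intraepithelial T cell fates. CXCR6 is a chemokine receptor of tissue-resident and effector T cells, whose ligand is CXCL16.

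CD45+ cells had been purified by sorting from C57BL/6 brain parenchyma, with 2 receptor libraries from 5xFAD;Cxcr6-/- mice and 2 from 5xFAD mice. Both genotypes carry the 5xFAD transgenes, which a neuronal Thy1 promoter drives as a model of Alzheimer's disease, so no group here lacks them. The Cxcr6-/- loss is labelled as a genotype of the whole mouse and is not restricted to T cells, and Cxcr6 itself could not be read from receptor contigs. Age, and whether a library holds 1 mouse or a pool, are not given in the sources used here, so the spread on which p-values rest is that of these libraries and may be technical. Gene expression data are not used here, so CD4, CD8 and regulatory identity were not assigned and the feature itself is no measure of self-reactivity.

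The libraries held 765 and 1330 barcodes with 13460 and 22340 UMIs in 5xFAD;Cxcr6-/-, and 2069 and 2522 barcodes with 32169 and 34772 UMIs in 5xFAD. The smaller size of both 5xFAD;Cxcr6-/- libraries moved with genotype. Of all barcodes, 28 occurred in more than 1 library, and 0 of these were hydrophobic-pair cells. Median TRB UMIs in hydrophobic-pair cells were 8.5 and 9.5 in 5xFAD;Cxcr6-/- and 9 and 7 in 5xFAD.

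The largest hydrophobic-pair clones show what the feature looks like in a receptor. The CDR3 nucleotides of the 5 clones with 7 or more cells are given 5′ to 3′ as deposited, with the codons of positions 6 and 7 in capitals.
5xFAD;Cxcr6-/- library 2, TRBV10 with TRBJ2-7, 31 cells: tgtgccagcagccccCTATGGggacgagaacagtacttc
5xFAD;Cxcr6-/- library 1, TRBV17 with TRBJ2-7, 14 cells: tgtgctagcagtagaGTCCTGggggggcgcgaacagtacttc
5xFAD library 1, TRBV13-1 with TRBJ2-5, 15 cells: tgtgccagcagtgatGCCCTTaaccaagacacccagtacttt
5xFAD library 1, TRBV3 with TRBJ2-4, 14 cells: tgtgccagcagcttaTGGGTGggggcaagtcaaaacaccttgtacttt
5xFAD library 2, TRBV19 with TRBJ2-7, 7 cells: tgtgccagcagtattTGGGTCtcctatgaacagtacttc
Beside these are given the germline D segments and the 3′ ends of TRBV13-1 and TRBV13-2, whose last base falls in codon 6. They are shown as annotated in GENCODE for GRCm38, the build that mm10 names, all on the + strand of chromosome 6. Capitals mark the letters searched in the D segments, and the base that falls in codon 6 in the V segments.
Trbd1, chr6:41533201-41533212: ggGACAGGgggc
Trbd2, chr6:41542163-41542176: ggGACTGGgggggc
TRBV13-1, CDR3 end: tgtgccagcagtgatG
TRBV13-2, CDR3 end: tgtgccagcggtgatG

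Hydrophobic-pair cells made up a somewhat higher share of cells in 5xFAD;Cxcr6-/- brains, whereas their share of clones overlapped between genotypes. By cells, the pair was found in 34 of 624 (5.45%, 95% Clopper-Pearson interval 3.803 to 7.53%) and 52 of 1150 (4.52%, 3.40 to 5.89%) in 5xFAD;Cxcr6-/-. In 5xFAD it was found in 73 of 1803 (4.05%, 3.19 to 5.06%) and 69 of 2144 cells (3.22%, 2.51 to 4.06%). Both 5xFAD;Cxcr6-/- libraries lay above both 5xFAD libraries. The means were 4.99 ± 0.655% in 5xFAD;Cxcr6-/- and 3.63 ± 0.587% in 5xFAD (SD, n = 2 each), and the difference of 1.35 percentage points had p = 0.333 by an exact two-sided permutation test. It was 0.888 points without 5xFAD;Cxcr6-/- library 1. With 2 libraries against 2, 0.333 is the smallest p of the exact permutation test, so no genotype comparison by that test could pass 0.05. Intervals cover counting error only, and cells of 1 clone are not independent draws.

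**Figure D1:**
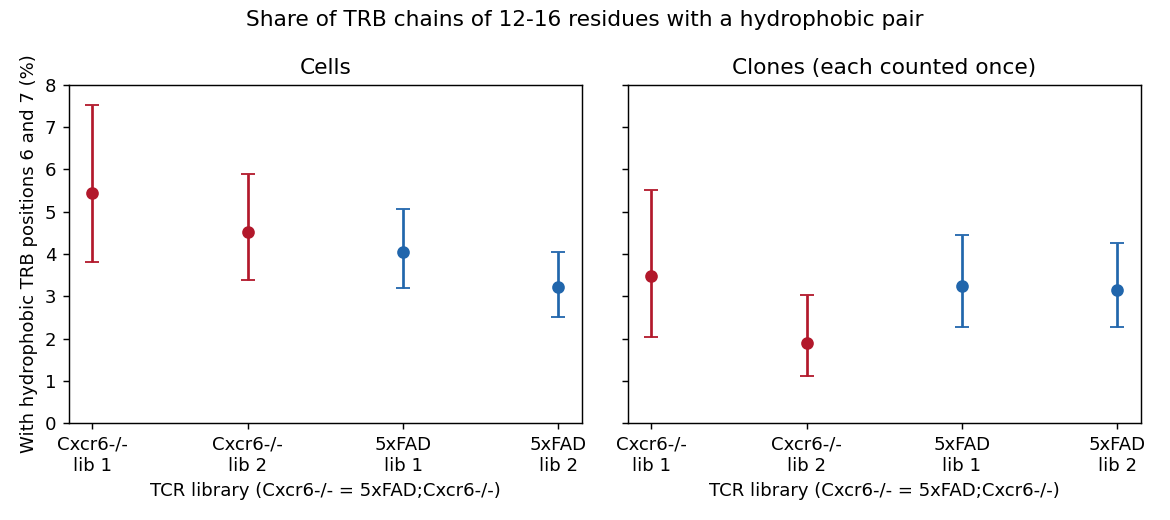
Share (%) of cells (left) and of clones (right) with a TRB CDR3 of 12 to 16 residues that carry a hydrophobic residue at both positions 6 and 7, 1 point per library with its 95% Clopper-Pearson interval; red is 5xFAD;Cxcr6-/-, blue is 5xFAD. By cells the 5xFAD;Cxcr6-/- libraries lie at 5.45 and 4.52% and the 5xFAD libraries at 4.05 and 3.22%, and by clones the order is not kept.

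Counting each clone once, the pair was carried by 17 of 489 clones (3.48%) and 17 of 895 clones (1.899%) in 5xFAD;Cxcr6-/-, and by 36 of 1113 (3.23%) and 41 of 1299 clones (3.16%) in 5xFAD. The 5xFAD;Cxcr6-/- libraries held the highest and the lowest of the 4 values, with the 5xFAD libraries between them. Means were 2.69 ± 1.12% in 5xFAD;Cxcr6-/- and 3.20 ± 0.0553% in 5xFAD (SD, n = 2 each), a difference of -0.51 points with p = 1 in the exact permutation test. The plot of cell and clone shares shows both measures side by side.

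The shares by cells rested largely on single clones in 5xFAD;Cxcr6-/-, and less so in 5xFAD. In both 5xFAD;Cxcr6-/- libraries the largest clone of all, among cells with 1 TRB of these lengths, was a hydrophobic-pair clone. Its 14 and 31 cells were 41.2% and 59.6% of the hydrophobic-pair cells of those libraries. The largest other clones there had 11 and 24 cells. In the 5xFAD libraries the largest hydrophobic-pair clones ranked 8 and 30, with 15 and 7 cells (20.5% and 10.1% of the hydrophobic-pair cells), and the largest other clones had 254 and 76 cells. Leaving out the largest clone of each library, whichever kind it was, brought the cell share to 3.28 and 1.88% in 5xFAD;Cxcr6-/- and to 4.71 and 3.34% in 5xFAD. The genotype difference then turned to -1.45 points (exact permutation p = 0.333). This removes a hydrophobic-pair clone in 5xFAD;Cxcr6-/- and an other clone in 5xFAD, so it moves the genotypes in opposite directions by construction. Leaving out the largest hydrophobic-pair clone of each library instead gave 3.28 and 1.88% in 5xFAD;Cxcr6-/- and 3.24 and 2.90% in 5xFAD, which overlap (difference -0.49 points, exact permutation p = 1).

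**Figure D2:**
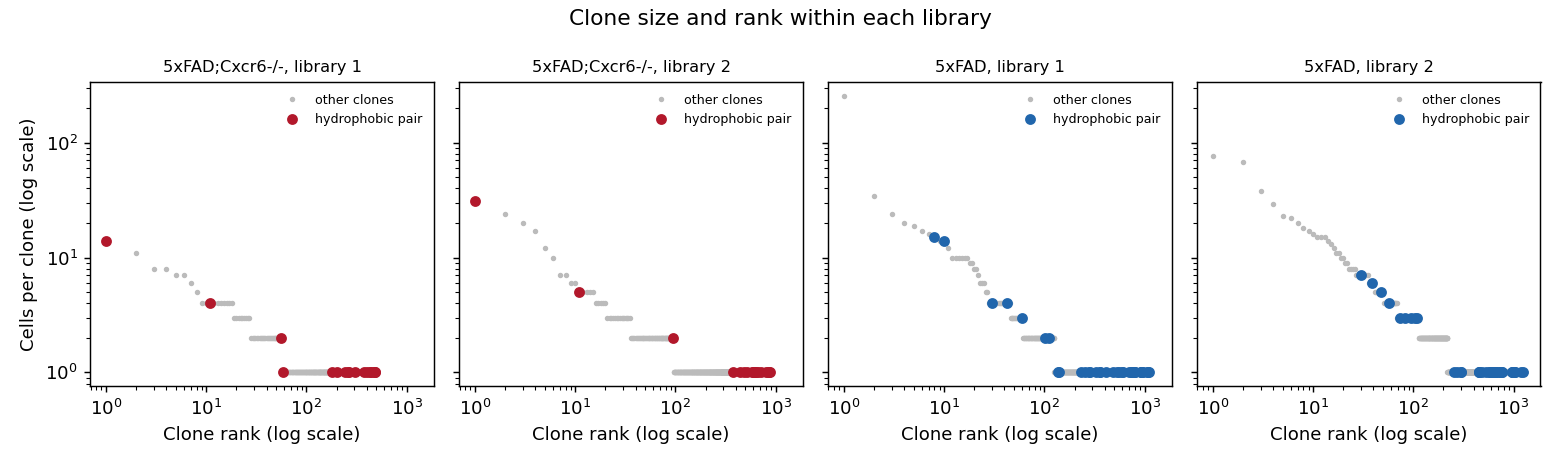
Cells per clone against clone rank (both axes log scale), 1 panel per library, grey points for other clones and coloured points for hydrophobic-pair clones. A hydrophobic-pair clone holds rank 1 in both 5xFAD;Cxcr6-/- libraries, with 14 and 31 cells, and ranks 8 and 30 in the 5xFAD libraries, with 15 and 7 cells.

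The leading clone of 5xFAD;Cxcr6-/- library 2 had the beta CDR3 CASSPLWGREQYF with leucine and tryptophan as its pair. It used TRBV10 (Trbv10 in the annotation, chr6:41091940-41092228, which GENCODE lists as a V pseudogene) and TRBJ2-7 (chr6:41543810-41543856). In 26 of its 31 cells it was paired with 1 alpha chain, TRAV10 joined to TRAJ52 with the CDR3 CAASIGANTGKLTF, and no other alpha chain was seen. All 31 carried this beta chain alone.

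The leading clone of 5xFAD;Cxcr6-/- library 1 had the beta CDR3 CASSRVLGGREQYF, with valine and leucine as its pair, built from TRBV17 (chr6:41163062-41163556) and TRBJ2-7. Of its 14 cells, 10 carried the alpha chain TRAV6N-7 with TRAJ17 and the CDR3 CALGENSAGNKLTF. The same beta chain was found in 51 barcodes of that library, of which 37 were outside the 14 because they listed a second TRB contig. The deposited clonotype of this clone likewise held 51 barcodes, 37 of them with more than 1 TRB. In all 37 the second chain was the same, TRBV23 joined to TRBJ1-1 with the 6-residue CDR3 CSSSRQ, and it was never listed without the first. The same alpha chain was found in all 37, and so in 47 of the 51 barcodes. Median UMIs were 23 for the first chain and 7 for the second in barcodes with both, against 13 for the first chain in barcodes with it alone. Whether one lineage carries both rearrangements in every cell was not tested, since the second chain has the lower UMI count and may go unlisted. Had cells with more than 1 TRB been kept, the cell share would have been 10.8 and 4.56% in 5xFAD;Cxcr6-/- and 4.09 and 3.14% in 5xFAD, a difference of 4.07 points (exact permutation p = 0.333).

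The leading clones of 5xFAD library 1 were close in size, and both paired with TRAV12-1. The TRBV13-1 clone (chr6:41116007-41116468 for Trbv13-1), with the CDR3 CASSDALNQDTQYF and an alanine-leucine pair, had its alpha chain joined to TRAJ13 in 14 of 15 cells. The TRBV3 clone (chr6:41048290-41048828 for Trbv3), with a tryptophan-valine pair, had its alpha chain joined to TRAJ45 in all 14 cells. In 5xFAD library 2 the leading clone used TRBV19 (chr6:41178375-41179048 for Trbv19) with the CDR3 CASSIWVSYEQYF, and 0 of its 7 cells had an alpha chain listed. The next largest clones named for each library held 2 to 14 cells. All 12 of these clones, 3 for each library, used a TRBJ2 segment, and their pairs held a tryptophan in 8.

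The share of expanded clones, those with 2 or more cells, was higher among hydrophobic-pair clones than among other clones in each of the 4 libraries. In 5xFAD;Cxcr6-/-, 3 of 17 (17.6%) and 3 of 17 (17.6%) hydrophobic-pair clones were expanded, against 53 of 472 (11.2%) and 92 of 878 (10.5%) other clones. In 5xFAD, 7 of 36 (19.4%) and 9 of 41 (22.0%) hydrophobic-pair clones were expanded, against 118 of 1077 (10.96%) and 209 of 1258 (16.6%) other clones. Every library showed the same direction, although the numbers of expanded hydrophobic-pair clones are small and their intervals wide (3.799 to 43.4% for 3 of 17, and 10.6 to 37.6% for 9 of 41). The mean was 19.2% of hydrophobic-pair clones and 12.3% of other clones, and the within-library difference was 6.85 ± 1.32 percentage points (SD, n = 4 libraries). An exact two-sided sign-flip permutation test gave p = 0.125, the smallest that 4 libraries allow.

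The difference kept its direction when expansion was counted from 3 cells (14.8% of hydrophobic-pair clones against 5.61% of other clones). It was 7.03 points when other clones were weighted to the same CDR3 lengths, and 8.46 points when weighted to the same TRBV and TRBJ cluster use, all with p = 0.125 in the exact permutation test. Taking alanine out of the hydrophobic set moved it most. It left 51 clones and a difference of 24.8 points (exact permutation p = 0.125), with alanine clones then counted among the others. This mean weighs each library equally, and 5xFAD;Cxcr6-/- library 2 entered it with 3 of only 4 clones expanded. Of clones whose pair held an alanine, 8 of 60 were expanded (13.3%), against 14 of the 51 without one (27.5%). In the 5xFAD;Cxcr6-/- libraries all expanded hydrophobic-pair clones lacked alanine in the pair, 3 of 10 and 3 of 4 clones without it against 0 of 7 and 0 of 13 with it. In the 5xFAD libraries they were 4 of 19 and 4 of 18 without it against 3 of 17 and 5 of 23 with it. The counts are small, and this contrast was picked after its values were seen and not tested. Over the 4 libraries 22 of 111 hydrophobic-pair clones were expanded (19.8%) and 89 were single cells.

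Between genotypes, expanded shares of hydrophobic-pair clones were 17.6 ± 0% in 5xFAD;Cxcr6-/- and 20.7 ± 1.77% in 5xFAD (SD, n = 2 each; difference -3.05 points, exact permutation p = 0.333). By cells the order was the other way. Thinned to 34 hydrophobic-pair cells per library, the share of these cells in expanded clones was 58.8 and 71.6% in 5xFAD;Cxcr6-/- and 54.4 and 46.3% in 5xFAD. Means were 65.2 ± 9.04% in 5xFAD;Cxcr6-/- and 50.4 ± 5.75% in 5xFAD (SD, n = 2 each), a difference of 14.8 points (exact permutation p = 0.333), and of 8.46 points without 5xFAD;Cxcr6-/- library 2. Unthinned, the values were 58.8 and 73.1% in 5xFAD;Cxcr6-/- and 60.3 and 53.6% in 5xFAD, which overlap. Without the largest hydrophobic-pair clone of each library and thinned to 20 cells, they were 30.0 and 32.9% in 5xFAD;Cxcr6-/- and 39.1 and 31.8% in 5xFAD, and the difference turned to -4.03 points (exact permutation p = 0.667).

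The share of expanded clones was also higher for clones with 1 hydrophobic residue at these positions than for clones with none. Pooled over libraries it was 19.8% of 111 clones with both, 14.3% of 1280 clones with 1, and 12.02% of 2405 clones with neither. In 5xFAD;Cxcr6-/- the libraries had 17.6, 12.7 and 10.5% and 17.6, 11.1 and 10.2% for both, 1 and neither. In 5xFAD they had 19.4, 11.1 and 10.8% and 22.0, 20.2 and 14.8%. The order both, 1, neither held in each library, and it was not tested. In 5xFAD library 2, clones with 1 hydrophobic residue (20.2%) were within 2 points of those with both, unlike the other 3 libraries. Hydrophobic pairs shifted by 1 position were also counted. For positions 5 and 6 the expanded share was 13.5 and 13.3% in 5xFAD;Cxcr6-/- and 13.2 and 29.4% in 5xFAD, and for positions 7 and 8 it was 6.67 and 8% in 5xFAD;Cxcr6-/- and 9.09 and 18.9% in 5xFAD. The pair at 5 and 6 was thus above clones with neither residue at 6 and 7 in 4 of 4 libraries too, whereas the pair at 7 and 8 was above them in 5xFAD library 2 alone. These shifted pairs share clones with the pair at 6 and 7 and are given as a description.

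**Figure D3:**
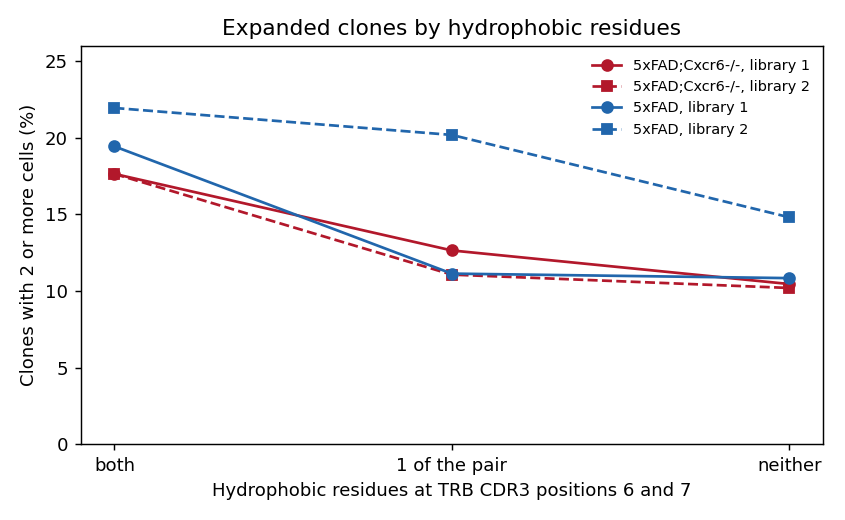
Share (%) of clones with 2 or more cells for clones with a hydrophobic residue at both, at 1 or at neither of TRB CDR3 positions 6 and 7, 1 line per library (red 5xFAD;Cxcr6-/-, blue 5xFAD). The value for both is the highest in each library, between 17.6 and 22.0%, against 10.2 to 14.8% for neither.

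A few pairs were more frequent than the rest. Of 81 possible pairs 29 occurred, led by alanine-leucine in 16 clones, tryptophan-valine in 9, alanine-alanine and alanine-tryptophan in 8 each, and leucine-tryptophan in 7. Alanine, small and the most common hydrophobic residue at position 6, was present in 60 of 111 clones (54.1%), and tryptophan, the bulkiest, in 44 (39.6%). Cysteine, which is counted as hydrophobic, was present in 0. At position 6, 42 clones had alanine, 19 leucine, 18 valine and 16 tryptophan. At position 7, leucine and tryptophan led with 29 clones each, followed by alanine with 26 and valine with 15. The same hydrophobic residues led over all 3796 clones, so their lead is not particular to hydrophobic-pair clones. There, position 6 was alanine in 300, leucine in 162, tryptophan in 136 and valine in 96. Position 7 was leucine in 203, tryptophan in 193, alanine in 130 and valine in 92. The rule fixed that both residues are hydrophobic but not which ones.

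Pairs differed in clone size. The 16 alanine-leucine clones held 30 cells, of which 15 were in the TRBV13-1 clone of 5xFAD library 1, and 1 of the 16 was expanded. Of the 9 tryptophan-valine clones 4 were expanded, with 31 cells in all. The 7 leucine-tryptophan clones held 38 cells, 31 of them in the leading clone of 5xFAD;Cxcr6-/- library 2. Alanine-leucine made up 17.6 and 23.5% of hydrophobic-pair clones in 5xFAD;Cxcr6-/- and 11.1 and 12.2% in 5xFAD, the only one of the 5 leading pairs whose genotypes did not overlap. For the 5 pairs, 0 passed in exact permutation tests (Benjamini-Hochberg adjusted p = 1 for each; the smallest unadjusted p was 0.333, that of alanine-leucine, with a difference of 8.94 points).

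By length, the pooled share was highest in the longest CDR3s of the range. It was carried by 12 of 450 clones of 12 residues (2.67%), 16 of 792 of 13 (2.02%), 34 of 1260 of 14 (2.70%), 30 of 924 of 15 (3.25%) and 19 of 370 of 16 residues (5.14%, interval 3.12 to 7.90%). The intervals of all 5 lengths overlapped, least so for 13 residues, whose upper bound was 3.26%, and 16. The share at 16 residues was the highest of the 5 lengths in both 5xFAD;Cxcr6-/- libraries (6.25 and 3.797%) and in 5xFAD library 1 (7.14%), but in 5xFAD library 2 it was 3.42%, below 5.54% at 15 residues and 3.75% at 12. Just outside the range the same pair was in 8 of 172 clones of 11 residues (4.65%) and 6 of 101 clones of 17 residues (5.94%). Mean CDR3 length was 14.2 residues for hydrophobic-pair clones and 13.98 for other clones, longer in 4 of 4 libraries (difference 0.259 ± 0.189 residues, SD, n = 4). The adjusted p was 0.286 in the exact sign-flip permutation test, the smallest that the family of 16 receptor features gave. Of the 16 features 0 passed 0.05, which the 4 libraries could not have allowed.

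**Figure D4:**
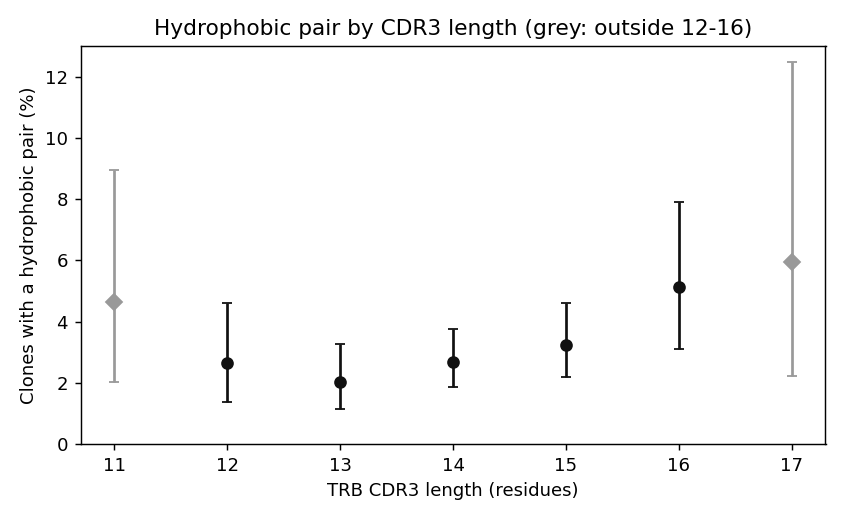
Share (%) of clones with hydrophobic TRB CDR3 positions 6 and 7 by CDR3 length in residues, 4 libraries pooled, with 95% Clopper-Pearson intervals; black points are inside the range studied and grey points outside it. The share lies between 2.02 and 3.25% at 12 to 15 residues and is 5.14% at 16.

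Outside the pair, hydropathy lay close to that of other chains, and the net charge was more negative in each library. The mean Kyte-Doolittle hydropathy of the rest of the CDR3 middle was -1.33 in hydrophobic-pair clones and -1.32 in other clones, higher in 2 of 4 libraries. The neighbouring position 5 was hydrophobic in 36.2% of hydrophobic-pair clones and 38.7% of other clones, and position 8 in 17.1% and 20.2%, each higher in 2 of 4 libraries. Net charge, with K and R counted positive and D and E negative, averaged -0.99 in hydrophobic-pair clones and -0.74 in other clones. It was lower in 4 of 4 libraries (-0.82, -0.82, -1.06 and -1.24 in the order 5xFAD;Cxcr6-/- 1 and 2, 5xFAD 1 and 2, against -0.70, -0.72, -0.79 and -0.74; adjusted p = 0.286 by exact sign-flip permutation). Without alanine in the set the charge difference was -0.029, against -0.25 with it, and without 5xFAD library 2 it was -0.16. The median TRB UMIs per cell were 1 lower in hydrophobic-pair cells (8.5 against 9.5, lower in 4 of 4 libraries), so their chains were not captured more deeply.

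The share of the TRBJ2 cluster, which lies downstream of Trbd2 and is spliced to Trbc2, was on average higher in hydrophobic-pair clones. TRBJ2 segments were used by 82.4 and 64.7% of hydrophobic-pair clones in 5xFAD;Cxcr6-/- and 75.0 and 87.8% in 5xFAD. Among other clones the values were 57.4 and 64.7% in 5xFAD;Cxcr6-/- and 63.0 and 64.5% in 5xFAD. In 3 libraries the difference was 12.05 points or more, and in 5xFAD;Cxcr6-/- library 2 it was 0.0134 points. The mean difference was 15.1 ± 11.6 points (SD, n = 4; exact sign-flip permutation adjusted p = 0.286), and 28.4 points without alanine in the set. Read the other way, 88 of 2416 TRBJ2 clones carried the pair (3.64%, interval 2.93 to 4.47%) and 23 of 1380 TRBJ1 clones (1.67%, 1.06 to 2.49%), pooled over the 4 libraries.

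In the test of single segments, edgeR's quasi-likelihood F test on clones with the library as a block, 0 of 149 TRBV, TRBJ, TRAV and TRAJ segments (0%) passed an adjusted p of 0.05 between hydrophobic-pair and other clones. At an unadjusted p under 0.05 there were 8, of which 2 were higher and 6 lower in hydrophobic-pair clones, and DESeq2 called 0 (5 unadjusted). Of these unadjusted counts edgeR's fell to 1 without 5xFAD library 2 and to 4 without 5xFAD library 1. Of all 149, 70 had a positive log2 fold change and 79 a negative one, with a median of -0.22. The 37 segments with 0 hydrophobic-pair clones were all negative. With TMM scaling that median moved by -0.97 and 9 segments passed, all lower in hydrophobic-pair clones, so single directions below are relative to the clone totals.

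The label TRBV12-2+TRBV13-2, a label of the files that names both segments, led among those higher. It was used by 23.5, 11.8, 19.4 and 34.1% of hydrophobic-pair clones in 5xFAD;Cxcr6-/- 1 and 2 and 5xFAD 1 and 2, against 10.8, 9.68, 15.97 and 12.9% of other clones. The fold change was 0.89 on the log2 scale (SE 0.32), with an adjusted p of 0.440 in edgeR, and turned to -0.078 with TMM scaling. TRBV13-1 pointed the same way, with 14 hydrophobic-pair clones and 255 others (12.3% against 6.74%, log2 fold change 0.83, SE 0.45, edgeR adjusted p = 0.852; -0.14 with TMM). Across TRBV13-1, TRBV13-2 and TRBV13-3, joint label included, 52 of 1107 clones carried the pair (4.70%). TRBV1, TRBV19 and TRBV3 had 9 hydrophobic-pair clones each, with log2 fold changes of 0.55, 0.23 and 0.11 (SE 0.55, 0.53 and 0.52). Of the 6 segments tested in the TRBV12 and TRBV13 families, 4 had a positive log2 fold change and 2 a negative one, with a median of 0.51. Of these, 0 passed the test. With TMM 1 was positive and 5 negative.

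Among the segments lower in hydrophobic-pair clones, TRBV29 (chr6:41271394-41271881) was used by 1 hydrophobic-pair clone against 236 other clones (log2 fold change -2.84, SE 1.03, edgeR adjusted p = 0.440). That clone was in 5xFAD library 1, and the fitted value was -7.67 without it, with 0 hydrophobic-pair clones left. TRBV26 (chr6:41227505-41227993) was used by 0 of 111 hydrophobic-pair clones and 116 other clones. A count of 0 allows up to 2.70%, a limit 1.16-fold below the 3.15% of other clones (edgeR adjusted p = 0.552). TRBJ1-5 (chr6:41535084-41535133) was also used by 0 of 111, against 132 other clones. There the limit is 1.33-fold below their 3.58% (edgeR adjusted p = 0.440). These limits are over the 4 libraries together. They are not adjusted for the 149 segments tested, of which 37 had 0 hydrophobic-pair clones, and neither segment passed the test. Among TRBJ segments, the edgeR log2 fold change was negative for all 6 of the TRBJ1 cluster and positive for all 6 of the TRBJ2 cluster. The medians were -0.97 and 0.33 (-0.54 for TRBJ1 with TRBJ1-5 at its bound). Mean shares over libraries went the other way for TRBJ1-4 (6.49% against 6.32% of other clones) and TRBJ2-1. None of the 12 passed the test, and with TMM all 6 TRBJ2 segments were lower. The most used was TRBJ2-7, in 27 hydrophobic-pair clones (23.1% against 19.7% of other clones, log2 fold change 0.28, SE 0.30), followed by TRBJ2-5 in 16 (13.6% against 11.1%), TRBJ2-4 in 13 (13.6% against 8.18%), TRBJ2-1 in 13 (10.8% against 10.9%) and TRBJ2-3 in 10 (9.71% against 7.40%).

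**Figure D5:**
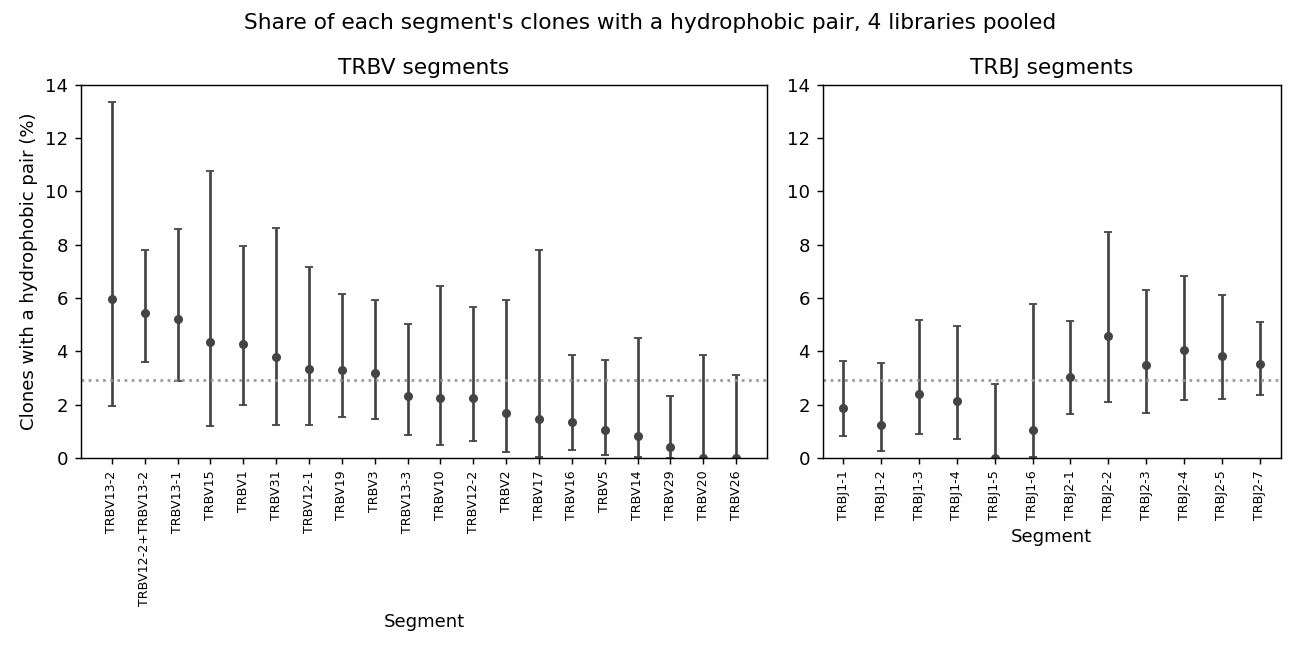
Share (%) of the clones of each TRBV segment (left, segments with 60 or more clones) and TRBJ segment (right) that carry the hydrophobic pair, 4 libraries pooled, with 95% Clopper-Pearson intervals and the share over all clones as a dotted line. TRBJ1-5, TRBV20 and TRBV26 are at 0, and every TRBJ2 segment lies above every TRBJ1 segment.

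Codons 6 and 7 were mostly not taken from V or J. Compared with the germline ends in the annotation, which 108 of the 111 hydrophobic-pair clones could be matched to, 84.8% of the 6 bases of these codons lay outside the V and J matches in hydrophobic-pair clones and 87.6% in other clones. V bases made up 8.17% in hydrophobic-pair clones and 5.34% in other clones, higher in 4 of 4 libraries. For these matches the joint label TRBV12-2+TRBV13-2, held by 27 hydrophobic-pair clones, was taken as TRBV13-2. TRBV13-1 and TRBV13-2 end in a G that falls in the first place of codon 6, as the sequences above show, and alanine and valine codons begin with G. Of the 42 clones with alanine at position 6, 26 used TRBV13-1, TRBV13-2 or TRBV13-3, joint label included. The segments differed, with alanine there in 20 of 32 hydrophobic-pair clones of TRBV13-2 and the joint label. For TRBV13-1 it was 4 of 14. The V match reached codon 6 in 29 of 52 TRBV13 hydrophobic-pair clones, and these 29 had alanine (25) or valine there. Within the hydrophobic set only alanine and valine have codons that begin with G, so a matched G fixes this outcome. A match of 1 base can arise by chance, and since the rule acts on these codons, their origin is given as a description.

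The germline letters of both D segments had low shares in hydrophobic-pair clones. The 6 letters GACAGG of Trbd1, searched on the given strand from base 10 of the CDR3 on, were present in 3 of 111 hydrophobic-pair clones (2.70%) and 599 other clones (16.3%). GACTGG of Trbd2 was present in 6 hydrophobic-pair clones (5.41%) and 539 other clones (14.6%). Over all 3796 clones these shares are 15.9% and 14.4%. The deposited D calls gave the same direction for Trbd1, with 2.69% of hydrophobic-pair clones and 16.3% of other clones, lower in 4 of 4 libraries, while Trbd2 calls were 9.88% and 7.29% and higher in 2. Tryptophan is encoded by TGG, which is part of the Trbd2 letters, and 5 of the 44 clones with a tryptophan in the pair held all 6 letters. Because the codons chosen lie where the D segment sits, the rule itself limits these shares and they support nothing further.

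Alpha partners were diverse. An alpha chain was missing in 39 of 228 hydrophobic-pair cells, and 11 cells had more than 1. The share without one was 17.3% in hydrophobic-pair cells and 18.7% in other cells on average, and the share with more than 1 was 4.75% and 7.58%. The alpha CDR3 itself had hydrophobic residues at both its positions 6 and 7 in 5.33% of hydrophobic-pair clones and 3.07% of other clones, higher in 3 of 4 libraries (difference 2.25 ± 1.69 points, exact sign-flip permutation adjusted p = 0.444).

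TRAV6-6 (chr14:53516929-53517366) was the alpha segment with the smallest p. It was used by 5.88 and 17.6% of hydrophobic-pair clones in 5xFAD;Cxcr6-/- and 8.33 and 7.32% in 5xFAD, against 3.39 and 3.99% and 3.06 and 3.26% of other clones. It was higher in all 4 libraries, with 10 hydrophobic-pair clones in all (log2 fold change 1.44, SE 0.59, edgeR adjusted p = 0.552). TRAV segments have near-identical copies, so this assignment is uncertain. TRAJ56, with 5 hydrophobic-pair clones (4.94% against 1.59%), had a log2 fold change of 1.61 (SE 0.87, edgeR adjusted p = 0.852). TRAV14-3 and TRAV6-7-DV9 had 3 and 5 hydrophobic-pair clones with log2 fold changes of 1.25 and 1.36. TRAJ22 and TRAJ34 had 5 and 3, with -0.22 and 0.29. None of these passed the test.

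By J region, the TRAJ58 to TRAJ40 segments are the end nearest the V segments. Of these, 11 of 14 had a positive edgeR log2 fold change against other clones and 3 a negative one, with a median of 0.44. From TRAJ39 to TRAJ21, 7 of 16 were positive and 9 negative (median -0.13, or 0.02 with segments at 0 at their bound). From TRAJ20 to TRAJ2, farthest from the V segments and reached by later rearrangements, 6 of 13 were positive and 7 negative (median -0.60, or 0.58 with the 5 segments at 0 at their bound). That bound, 2.70%, lies above the share in other clones of every TRAJ segment at 0, so the medians of 0.02 and 0.58 reflect the bound. None of these segments passed the test, and with TMM 6 of 14, 1 of 16 and 1 of 13 were higher. Segments with 0 hydrophobic-pair clones were all negative and numbered 0, 2 and 5 in these lists, so the sign counts partly follow them. Over all 149 segments 70 were positive and 79 negative.

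Invariant natural killer T cells carry TRAV11 joined to TRAJ18 and, in mice, mostly TRBV13-2, TRBV29 or TRBV1. Such an alpha chain was found in 12 of 111 hydrophobic-pair clones, all with the same alpha CDR3, and 8 of the 12 had TRBV13-2 or the joint label, while 0 had TRBV29 or TRBV1. By library they were 1 of 17 (5.88%) and 0 of 17 (which allows up to 17.6%) in 5xFAD;Cxcr6-/-, and 6 of 36 (16.7%) and 5 of 41 (12.2%) in 5xFAD. Other clones had 3.81 and 1.94% in 5xFAD;Cxcr6-/- and 15.9 and 9.54% in 5xFAD, and in each library the hydrophobic-pair clones were within 3 points of them. Against other clones TRAV11 and TRAJ18 had log2 fold changes of 0.35 (SE 0.43) and 0.04 (SE 0.42). The difference from other clones in the joined chain was 0.894 ± 2.04 points (SD, n = 4; higher in 3 of 4; exact sign-flip permutation p = 0.375). Between genotypes the share in hydrophobic-pair clones averaged 2.94 ± 4.16% in 5xFAD;Cxcr6-/- and 14.4 ± 3.16% in 5xFAD, without overlap (difference -11.5 points, exact permutation p = 0.333).

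Of these 12 clones 1 was expanded, so they held 14 cells. The expanded one, in 5xFAD library 1, had 3 cells, all with TRAV7D-5 joined to TRAJ15 and 1 of them also with the invariant chain. Without iNKT-like clones, 18.8 and 17.6% of hydrophobic-pair clones were expanded in 5xFAD;Cxcr6-/- and 20% and 25.0% in 5xFAD, against 11.7 and 10.7% and 12.03 and 17.6% of other clones. The mean difference in expanded share was 7.36 points without these clones (exact sign-flip permutation p = 0.125), as large as with them. Mucosal-associated invariant T cells, with TRAV1 joined to TRAJ33, were 0 of 228 hydrophobic-pair cells, while the other cells held 2 and 5 in the 5xFAD libraries and 0 in both 5xFAD;Cxcr6-/- libraries.

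In the genotype test within hydrophobic-pair clones, 10 segments with at least 10 clones were tested and 0 passed in edgeR (0%), with 0 at an unadjusted p under 0.05 and 0 in DESeq2. TRAV11 and TRAJ18, the parts of the invariant chain, had the smallest p. TRAV11 was used by 2.94% of hydrophobic-pair clones in 5xFAD;Cxcr6-/- and 17.04% in 5xFAD (log2 fold change -2.35, SE 1.18). TRAJ18 was used by 2.94% in 5xFAD;Cxcr6-/- and 15.8% in 5xFAD (log2 fold change -2.24, SE 1.24), and both had an edgeR adjusted p of 0.427. The direction was the same in other clones, so it is not particular to hydrophobic-pair clones. Other clones used TRAV11 in 4.24 and 2.16% in 5xFAD;Cxcr6-/- and in 16.1 and 9.94% in 5xFAD. They used TRAJ18 in 6.57 and 3.64% in 5xFAD;Cxcr6-/- and in 17.5 and 11.2% in 5xFAD. TRBJ2-4 led in the other direction, with 17.6% in 5xFAD;Cxcr6-/- and 9.55% in 5xFAD (log2 fold change 0.92, SE 0.88, edgeR adjusted p = 0.812). Single libraries moved these values, to -1.46 and -1.35 for TRAV11 and TRAJ18 without 5xFAD;Cxcr6-/- library 2, to -5.44 and -5.32 without 5xFAD;Cxcr6-/- library 1, where no clone of that genotype is left with either, and to 0.080 for TRBJ2-4 without 5xFAD library 2. Whether the difference between hydrophobic-pair and other clones depended on genotype was tested as an interaction over 149 segments, and 0 passed (0%), with 0 at an unadjusted p under 0.05 and 0 in DESeq2.

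No hydrophobic-pair sequence was found in a second library. Of 110 distinct beta CDR3 amino-acid sequences with the pair, 0 occurred in more than 1 library, which allows a share of up to 2.73%. Among other sequences of these lengths 56 of 3493 (1.60%) did. Per library, 0% of hydrophobic-pair sequences and 2.90 to 4.12% of other sequences were found in another library (lower in 4 of 4, exact sign-flip permutation adjusted p = 0.286). At this number of sequences a share like that of the others was not distinguishable from 0. No hydrophobic-pair amino-acid sequence was encoded by more than 1 nucleotide sequence within a library.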

How the data were processed

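Single-cell T cell receptor libraries of 4 samples, 2 per genotype, were used, grouped by the labels. Libraries came from the Immune Profiling v2 kit of 10x Genomics, per the labels' protocols. The tool Cell Ranger 6.0 and the build mm10 are named per the submitters' processing notes; the receptor reference is not given in the sources used here. Per the file headers, the deposited tables give each contig's read count and UMI count, not normalized, and V, D, J and CDR3 calls. All contigs were TRA or TRB, productive and in called cells.

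Barcodes with more than 1 TRB were left out, since they can be doublets; no doublet caller was run, and free RNA could not be measured. A clonotype counted for the pair where most of its usable cells had it. Library means were compared with exact two-sided permutation tests, and classes within libraries with exact two-sided sign-flip tests (SciPy 1.17.1). Single shares carry 95% Clopper-Pearson intervals, and a count of 0 the limit of 3 counts of the total. Segment use was tested with edgeR 4.0.16 (R 4.3.3) on clones per segment, with the log clone total as offset, a minimum of 10 clones and Benjamini-Hochberg adjustment at 0.05. An SE from edgeR is the fold change without its sign over the root of F. DESeq2 1.42.0 was an alternative. Code was tested on simulated data. Coordinates are from GENCODE on GRCm38.

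Named segments were every called one, the 5 TRBV, 4 TRBJ, 4 TRAV and 4 TRAJ most used by hydrophobic-pair clones, in the class and genotype tests the 3 higher and the 3 lower ones of smallest p, and TRAV11 and TRAJ18. The clones named are each library's 3 largest with the pair. The clones, segments and lists were chosen with earlier results of these data known. The counts of 0, 1 or 2 hydrophobic residues, the germline and D letter matches, TRBV20 in the plot, and the second TRB chain were picked after their values were seen.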

Additional observations from a re-analysis of the deposited data

Results flagged for a closer look

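Barcodes with more than 1 TRB chain were outside the rule and entered the comparisons only as an alternative. In both 5xFAD;Cxcr6-/- libraries the share of them with a hydrophobic chain was above that of either 5xFAD library. In 5xFAD;Cxcr6-/- library 1, 40 of 61 such barcodes with a chain of 12 to 16 residues carried it (65.6%, Clopper-Pearson 95% bounds 52.3 and 77.3%). For 5xFAD;Cxcr6-/- library 2 it was 3 of 55 (5.45%, 1.14 to 15.1%), whose interval holds the 5xFAD values of 4 of 80 (5%) and 1 of 86 (1.16%). In library 1, 37 of the 40 barcodes were the TRBV17 chain together with the TRBV23 chain. The deposited clonotype of the TRBV17 clone held 51 barcodes, 37 of them with more than 1 TRB chain. The number of mice behind that library is not given, and whether the pair of chains comes from 1 lineage was not tested beyond that grouping.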

How the results depend on the processing

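The main limits were 2 libraries per genotype, 17 hydrophobic-pair clones in each 5xFAD;Cxcr6-/- library, and leading clones that held much of the cells. No genotype test could pass 0.05 in exact permutation, so unchanged calls say nothing of stability, and the causes of the changes below were not tested. Among the main comparisons and counts, 95 alternative values kept their direction and call or, for counts, stayed at 0. These counts were of segments, features or pairs passing and have no direction. For features and pairs the exact tests allowed no pass, so those counts could not have moved. The exceptions in direction were the genotype difference in cell share without the largest clone of each library (-1.45 points) and without the largest hydrophobic-pair clone (-0.49 points, chosen after seeing the data), the thinned expanded share without the largest hydrophobic-pair clone (-4.03 points, likewise chosen after seeing the data), the clone share, which ranged from -1.296 to 0.281 points when libraries were left out in turn and turned positive without 5xFAD;Cxcr6-/- library 2, and the iNKT-like difference without alanine (-6.54 points). A further count moved, that of segments passing in edgeR between hydrophobic-pair and other clones, which was 0 as reported and 9 with TMM scaling. The difference in expanded share kept its direction throughout, between 5.37 and 24.8 points, and 6.31 to 7.36 points with libraries left out. The value of 24.8 points was that without alanine, where 5xFAD;Cxcr6-/- library 2 had 4 hydrophobic-pair clones. With libraries left out in turn, the cell share difference ranged from 0.888 to 1.82 points and the thinned share difference from 8.46 to 18.9 points. Alternatives with barcodes of more than 1 TRB kept, or other clones weighted to TRBV and TRBJ cluster, were chosen after seeing the data.

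The labels pair the libraries by number only, and whether equal numbers share a batch is not given in the sources used here. With 2 pairs, the correlation of replicate 1 minus replicate 2 between genotypes was 0.112 over 96 segments. It rests on 1 difference per genotype and cannot decide this. With the replicate block, the genotype differences were 1.35 points for cells, -0.51 points for clones and 14.8 points for the thinned share, where the smallest exact permutation p is 0.5, and 0 of 10 segments passed in edgeR.

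Single segments between hydrophobic-pair and other clones (log2 fold changes) changed direction as follows. With TMM scaling, TRAJ18 was -0.89, TRAJ34 -0.71, TRAV11 -0.56, TRBJ2-1 -0.91, TRBJ2-3 -0.72, TRBJ2-4 -0.49, TRBJ2-5 -0.61, TRBJ2-7 -0.72, TRBV1 -0.43, TRBV12-2+TRBV13-2 -0.078, TRBV13-1 -0.14, TRBV19 -0.75 and TRBV3 -0.90. With DESeq2, TRAJ18 was -0.070, TRAJ34 -0.25 and TRBJ2-1 -0.020. With cells counted in place of clones, TRAJ18 was -0.78, TRAJ34 -1.43, TRAV11 -0.24, TRBJ2-1 -0.49 and TRBV3 -0.12. Without alanine, TRAJ18 was -1.64, TRAJ34 -6.38, TRAV11 -1.43 and TRBJ2-3 -0.91. Without iNKT-like cells TRAJ18 was -1.001, and with the TRB alone defining a clone it was -0.0044. With libraries left out in turn, the ranges that crossed 0 were -0.079 to 0.11 for TRAJ18, -1.31 to 0.46 for TRAJ22, -6.39 to 1.02 for TRAJ34, -0.071 to 1.92 for TRAV14-3, -0.38 to 1.82 for TRAV6-7-DV9, -0.14 to 0.26 for TRBJ2-1, -0.040 to 0.49 for TRBJ2-3, -0.0035 to 0.45 for TRBJ2-7, -0.20 to 0.68 for TRBV19 and -0.25 to 0.39 for TRBV3.

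Between genotypes, the log2 fold changes that changed direction were those of TRBJ2-3 (-0.23), TRBJ2-4 (-0.80) and TRBJ2-7 (1.33) with cells counted, TRBJ2-7 without alanine (0.51), and TRBV13-1 with TMM scaling (0.15) and without iNKT-like cells (0.21). Left-out libraries gave -5.07 to 0.43 for TRBJ2-1, -2.07 to 0.44 for TRBJ2-7 and -1.09 to 0.43 for TRBV13-1. The pair alanine-tryptophan ranged from -6.78 to 10.9 points and tryptophan-valine from -1.94 to 3.94 points.

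Among receptor features, the hydropathy difference was 0.082 without alanine and 0.0062 without iNKT-like cells, and ranged from -0.045 to 0.048 with libraries left out. The hydrophobic share at position 5 was 5.34 points higher in hydrophobic-pair clones without alanine and ranged from -4.92 to 0.35 points. Trbd2 calls ranged from -1.99 to 5.42 points, and cells with no alpha chain from -3.23 to 1.71 points.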
